A study of Mus musculus with 4 samples.

Results

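The transcripts of 10 genes of the oxidative and metal stress response were followed in mouse ST2 cells after low-intensity pulsed ultrasound (LIPUS), which is applied clinically to speed the healing of fractures. The genes were taken by gene symbol and comprise 8 genes of the NRF2 pathway (Nfe2l2, Hmox1, Nqo1, Gclc, Gclm, Slc7a11, Srxn1 and Txnrd1) and the metallothionein genes Mt1 and Mt2. All 10 had at least 1 probe set with a single gene symbol, out of 18193 genes so named on the array, and together they had 20 probe sets. ST2 cells are a permanent, fibroblast-like stromal line that was derived from the bone marrow of BALB/c mice. One Affymetrix Mouse Genome 430 2.0 array was available for each of 4 groups. These were control cells and cells exposed to LIPUS for 20 min at 25 mW per square cm. The exposed cells were cultured for a further 0.5, 1 or 3 h. All groups, the control included, were grown at 37 °C in medium with 10% serum under 5% CO2. The labels do not say whether the control cells were handled alongside the exposed cells or when they were collected.

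NRF2, the product of Nfe2l2, is a transcription factor that is held at a low level by KEAP1, which directs it to degradation. Electrophiles and oxidants modify KEAP1, NRF2 then accumulates, pairs with small MAF proteins and binds antioxidant response elements in genes for glutathione synthesis, thioredoxin recycling, quinone reduction and haem breakdown. Because NRF2 is controlled mainly through the stability of the protein, the level of its mRNA is a poor guide to its activity. Metallothioneins are small cysteine-rich proteins that bind zinc, copper and cadmium, and their genes respond to metals through the zinc-sensing factor MTF1 and also to glucocorticoids and oxidants.

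The deposited values were log2 signals, and the median of all values, 5.23, was used as a floor under which a probe set was taken as not measured. Each gene is given by its probe set of highest mean signal unless stated. The labelled cell type was checked first. Of 10 stromal marker genes with a probe set, 9 lay above the floor on all 4 arrays, among them Col1a1, Pdgfrb and Cxcl12, and Thy1 lay under it. Of 10 haematopoietic markers, 4 (Csf1r, Cd14, Cd3e and Laptm5) were above the floor on all 4 arrays. Another 5 (Ptprc, Cd68, Adgre1, Itgam and Tyrobp) were under it on all 4. Across the 4 arrays the summed linear signal of the stromal list ran from 85834 to 89521. That of the haematopoietic list, most of whose probe sets were not above the floor on all arrays, ran from 506 to 526. Of the markers of other cell types, 0 of 3 erythroid, 1 of 5 endothelial (Kdr) and 2 of 4 epithelial genes (Epcam and Krt8) lay above the floor on all 4 arrays. In cultures measured in bulk, a change in the share of cells that carry a transcript and a change in the amount per cell cannot be told apart.

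Since each group was a single array, no comparison could be tested and the spread between cultures is unknown, so differences are given as descriptions. The SD between probe sets of 1 gene served as a measure of how far probe sets disagree on the same pair of arrays. Error that the RNA or labelling of an array puts on all probe sets of a gene alike cancels in it. Multiples of this SD therefore do not measure how certain a difference between 2 arrays is. The SD was 0.106 at 0.5 h, 0.157 at 1 h and 0.136 at 3 h. It was taken over 5004 genes on the scale of the log2 ratio to the control. A change was counted at 2-fold, a log2 difference of 1, and also at the lower mark of 1.5-fold.

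None of the 9 measured genes reached 2-fold at any time. Hmox1, Mt1, Mt2 and Srxn1 lay farthest from the control and differed in direction and course: Hmox1 was higher at the early times, Mt1 and Mt2 were highest at 3 h, and Srxn1 was lowest at 3 h. At 0.5 h, 0 of 9 genes were at least 2-fold higher, where 0.138% of 11574 genes were, and 0 were 2-fold lower, where the share over all genes was 0%. At 1.5-fold, 1 of 9 was higher (Hmox1), against 0.372% of all genes, and 0 were lower, against 0.104%. At 1 h, the corresponding counts were 0 of 9 higher at 2-fold against 0.191% of 11497 genes, and 1 of 9 higher at 1.5-fold (again Hmox1) against 0.948%. No member was lower at 1 h at 2-fold or at 1.5-fold, against 0% and 0.331% of all genes. At 3 h, 0 of 9 were higher at 2-fold against 0.0691%, and 1 of 9 at 1.5-fold (Mt1) against 0.346%. No member was lower at 3 h at either mark, against 0% and 0.181%. The 1.5-fold mark is a log2 difference of 0.585, and each of these 3 calls lay just past it. Hmox1 was under the mark at 0.5 h and 1 h with quantile normalization (0.577 at both times) and with cyclic loess (0.580 and 0.576). Mt1 at 3 h was under it with median centring (0.576), quantile normalization (0.579) and cyclic loess (0.583), and at 0.34 with the mean of its probe sets. A count of 1 among 9 genes whose choice followed earlier results of these data is a description only.

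**Figure D1:**
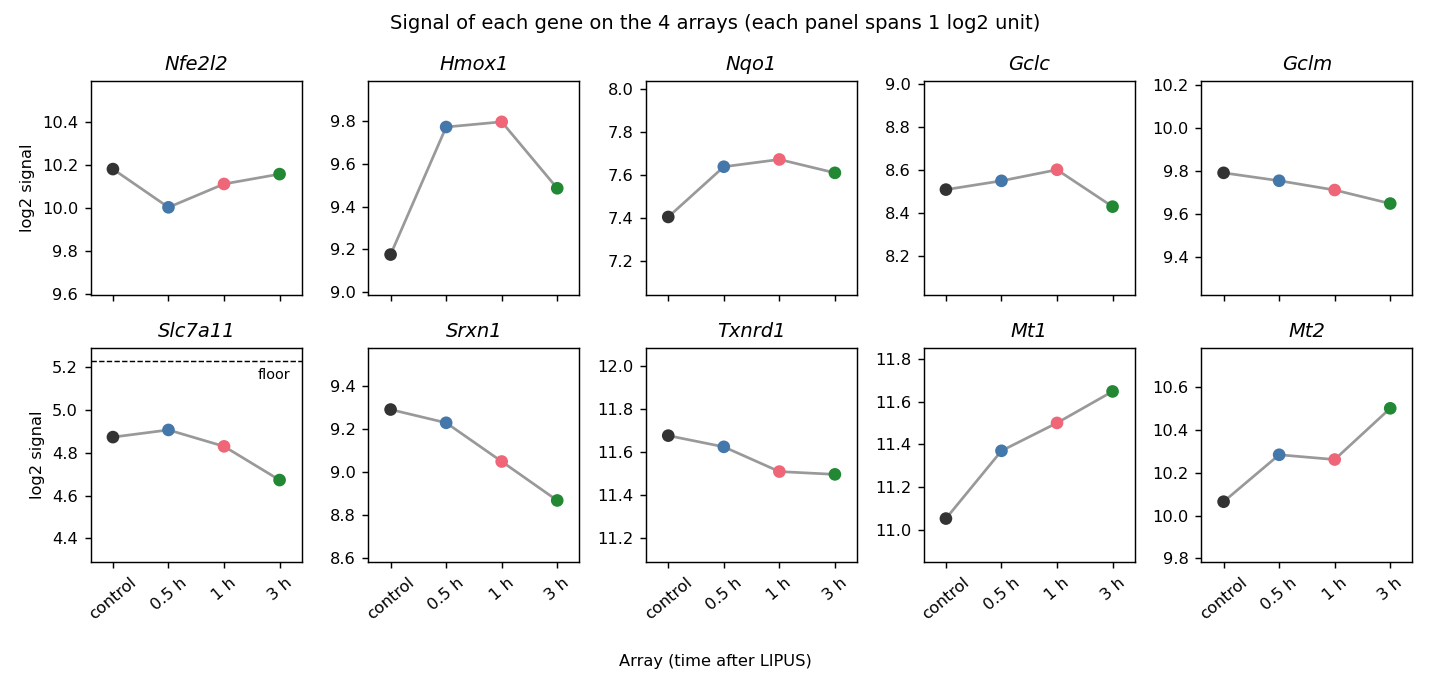
Log2 signal of the 10 genes on the control array and 0.5, 1 and 3 h after LIPUS, by the probe set of highest mean signal; each point is 1 array, each panel spans 1 log2 unit, and the dashed line is the floor of 5.23. Hmox1 was high at 0.5 h and 1 h, Mt1 was highest at 3 h, Srxn1 was lowest at 3 h, and Slc7a11 lay under the floor throughout.

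The regulator itself differed little from the control. Nfe2l2 had a log2 signal of 10.18 on the control array, against 10.00, 10.11 and 10.16 on the 0.5, 1 and 3 h arrays. The 0.5 h array was the lowest, 0.18 below the control array and 1.69 times the SD between probe sets, and the 3 h array was 0.02 below it. A second Nfe2l2 probe set lay under the floor on all 4 arrays.

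Hmox1 encodes haem oxygenase, the inducible enzyme that cleaves haem to biliverdin, iron and carbon monoxide. It is a target of NRF2, is repressed by BACH1 and also responds to heat shock. On the control array its log2 signal was 9.18, and after LIPUS it was 9.77 at 0.5 h, 9.80 at 1 h and 9.49 at 3 h. All 3 LIPUS arrays were above the control array, and the 2 early arrays were above the 3 h array. The log2 ratio was 0.60 at 0.5 h, 0.62 at 1 h and 0.31 at 3 h, which is 1.51-fold, 1.54-fold and 1.24-fold. These ratios were 5.62, 3.96 and 2.27 times the SD between probe sets of the same comparison. Among all genes measured, Hmox1 held the 40th highest ratio at 0.5 h, the 93rd at 1 h and the 441st at 3 h. Hmox1 has a single probe set, so no second reading was available on these arrays.

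Nqo1 encodes a quinone reductase and is the target most often used to read NRF2 activity. On the control array its log2 signal was 7.40, and after LIPUS it was 7.64 at 0.5 h, 7.67 at 1 h and 7.61 at 3 h. The 3 LIPUS arrays lay close together and above the control, with log2 ratios of 0.23, 0.27 and 0.21. In fold terms these were 1.18, 1.20 and 1.15, and the log2 ratios amounted to 2.21, 1.71 and 1.51 times the SD between probe sets. Nqo1 also rests on 1 probe set.

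The first step in making glutathione from cysteine is carried out by glutamate-cysteine ligase. The catalytic subunit of this enzyme is encoded by Gclc and its modifier subunit by Gclm. The cystine that feeds the synthesis enters through the transporter encoded by Slc7a11. Gclc was given by a probe set whose suffix marks probes shared by more than 1 transcript. Gclc had log2 signals of 8.51, 8.55, 8.60 and 8.43 in the control and at 0.5, 1 and 3 h. Its ratios of 0.04, 0.09 and −0.08 were each within 1 SD between probe sets, and its other probe set gave 0.12, 0.13 and −0.04. Gclm had log2 signals of 9.79, 9.75, 9.71 and 9.65 in the same order. Its ratios were −0.04, −0.08 and −0.14, the last 1.05 times the SD, and its other probe set gave −0.07, 0.18 and −0.08. The 2 subunit genes thus differed from the control by little more than the spread between probe sets. Slc7a11 had log2 signals of 4.87, 4.91, 4.83 and 4.67, under the floor on all 4 arrays, and its other probe set was dimmer still. No ratio was given to it, and it is the 1 gene of the 10 left out of the counts.

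Srxn1 encodes sulfiredoxin, which restores over-oxidised peroxiredoxins, and Txnrd1 encodes the cytosolic thioredoxin reductase. These genes lay on the other side of the control from Hmox1. Srxn1 had a log2 signal of 9.29 on the control array, against 9.23, 9.05 and 8.87 on the 0.5, 1 and 3 h arrays. The control array was the highest and the 3 h array the lowest. The log2 ratios were −0.06, −0.24 and −0.42, and at 3 h Srxn1 was 1.34-fold lower than in the control, 3.11 times the SD between probe sets. It had the 122nd lowest ratio of 11574 genes at 3 h. The suffix of the probe set that stands for Srxn1 marks probes shared by more than 1 transcript. Srxn1 has 4 probe sets above the floor, more than any other gene here, and 4 of 4 were below the control at 1 h, with differences from −0.45 to −0.24. At 3 h, 4 of 4 were again below it, from −0.45 to −0.04, and at 0.5 h 3 of 4 were. The weakest of them at 3 h, at −0.04, was also the dimmest, and its log2 signal of 6.88 at 3 h stood beside 6.92 on the control array.

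Txnrd1 had a log2 signal of 11.68 on the control array, against 11.62, 11.51 and 11.50 on the 0.5, 1 and 3 h arrays. Its log2 ratios were −0.05, −0.17 and −0.18, of which the last was 1.32 times the SD. All 3 of its probe sets were below the control at every time, with differences from −0.41 to −0.17 at 1 h and from −0.34 to −0.18 at 3 h. The 2 dimmer probe sets gave the wider differences at 1 h and 3 h, but not at 0.5 h. The suffixes of the 2 brighter Txnrd1 probe sets mark probes that match alternative transcripts of the gene. That of the dimmest marks probes that may bind other sequences as well.

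**Figure D2:**
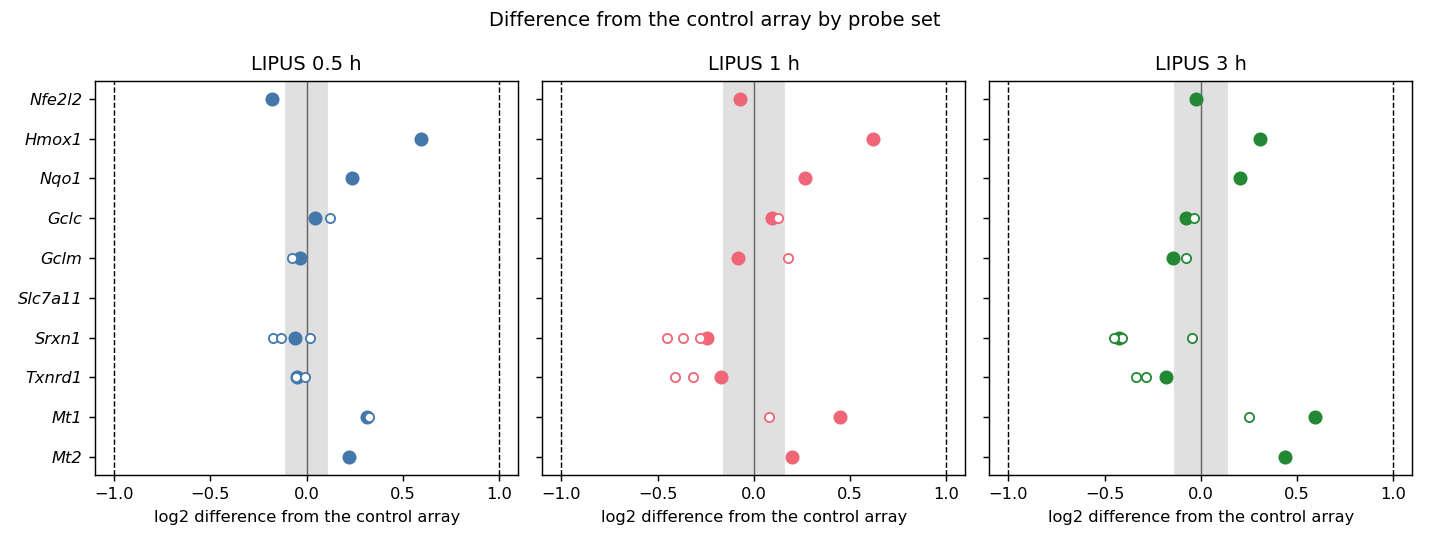
Log2 difference from the control array (x axis) for every probe set above the floor on at least 1 array, at 0.5, 1 and 3 h after LIPUS; filled points are the probe set that stands for the gene, open points the others, the grey band is 1 SD between probe sets either side of 0, and dashed lines mark 2-fold. No point reaches 2-fold; Hmox1 at 0.5 h and 1 h and Mt1 at 3 h lie farthest to the right, and the 4 Srxn1 points lie to the left of 0 at 1 h and 3 h.

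The metallothionein genes were above the control on every LIPUS array and highest on the last. Mt1 had a log2 signal of 11.05 on the control array, against 11.37, 11.50 and 11.65 on the 0.5, 1 and 3 h arrays. Its log2 ratios were 0.32, 0.45 and 0.59, which is 1.24-fold, 1.36-fold and 1.51-fold. At 2.99, 2.85 and 4.35 times the SD between probe sets, these were among the higher ratios of all genes, with the 175th, 246th and 39th places. Mt2, its neighbour on chromosome 8, had a log2 signal of 10.06 on the control array, against 10.28, 10.26 and 10.50 on the 0.5, 1 and 3 h arrays. The log2 ratios of Mt2 were 0.22, 0.20 and 0.44, or 1.16-fold, 1.15-fold and 1.35-fold, and the 3 h value was 3.19 times the SD and the 120th highest. For both genes the 3 h array was the highest of the 4 and the control the lowest. Mt1 was given by a probe set whose suffix marks probes shared by more than 1 transcript, so part of its signal may come from a related gene. The other Mt1 probe set lay near the floor, at 5.07, 5.39, 5.14 and 5.32, above it on 2 of 4 arrays, and does not settle the course. The poly-A controls of bacterial origin, which are added before labelling, had median log2 ratios to the control array of −0.05, 0.28 and 0.41 at 0.5, 1 and 3 h. For 18S ribosomal RNA the medians were 0.96, 1.91 and 1.79. Over time the poly-A controls were in the same order as Mt1 and Nfe2l2, and in the opposite order to Gclm, Srxn1 and Txnrd1. The other measured members, Mt2 among them, were in neither order. The part of the poly-A controls and 18S RNA in these results was not tested. The 5' minus 3' log2 signal, a measure of RNA and cRNA integrity, differed from the control by −0.06, −0.16 and −0.16 for Gapdh, −0.03, −0.13 and −0.09 for Actb, −0.09, −0.23 and −0.22 for Pcx and −0.41, −0.30 and −0.14 for Tfrc. It was thus lower on all 3 LIPUS arrays, as Nfe2l2, Gclm, Srxn1 and Txnrd1 were, and its part in the results was not tested either.

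Promoter sequence is shown for the metallothionein genes, which lay above the control together, and for Srxn1 and Txnrd1, which lay below it. RefSeq windows on GRCm38.p6, from 250 bases before to 50 bases after an annotated start site, were matched by symbol for 8 of the 10 genes (10 windows, of which Txnrd1 has 3), and not for Hmox1 and Gclc. This build is of the C57BL/6J reference strain and the cells are BALB/c. The letters searched on both strands were TGACNNNGC and TGAGNNNGC for the antioxidant response element core, TGCACNC and TGCGCNC for the metal response element core, TGACTCA for the AP-1 site (TGAGTCA on the other strand), which can lie inside an antioxidant response element, and the heat shock element. Each stretch ends at the base before the start site, all are on the plus strand, capitals mark the matches, and Txnrd1 is shown at the second of its 3 annotated starts.
Mt2, chr8:94172468-94172617: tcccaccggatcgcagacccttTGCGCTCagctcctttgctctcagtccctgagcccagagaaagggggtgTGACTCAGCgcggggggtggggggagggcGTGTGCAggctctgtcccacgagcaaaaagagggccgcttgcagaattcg
Mt1, chr8:94178939-94179088: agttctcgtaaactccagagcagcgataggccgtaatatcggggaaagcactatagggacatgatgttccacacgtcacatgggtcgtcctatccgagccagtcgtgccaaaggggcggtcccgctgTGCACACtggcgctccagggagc
Srxn1, chr2:152105364-152105523: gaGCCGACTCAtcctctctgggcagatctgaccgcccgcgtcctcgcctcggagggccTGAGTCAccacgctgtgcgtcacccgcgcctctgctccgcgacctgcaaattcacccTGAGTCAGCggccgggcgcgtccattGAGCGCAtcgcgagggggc
Txnrd1, chr10:82859056-82859205: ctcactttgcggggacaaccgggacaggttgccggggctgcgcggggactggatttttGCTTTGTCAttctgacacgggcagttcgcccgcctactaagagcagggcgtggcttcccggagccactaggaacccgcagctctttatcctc

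In the whole windows, Mt2 held 4 matches to the metal response element core and Mt1 held 3, where 0.517% of all 32851 windows of the same length held 4 or more and 1.97% held 3 or more. Some of these matches lie outside the stretches printed above. Those after the start site begin at positions 3 and 21 in Mt1 and at position 5 in Mt2. Mt2 also held TGACTCAGC, which matches the antioxidant response element core and contains an AP-1 site, 79 bases before the start site. Srxn1 held 3 matches to the antioxidant response element core, where 0.63% of windows held 3 or more. Of the 3, 1 begins after the start site, at position 29. The Srxn1 window held 2 AP-1 sites, where 0.222% of windows held 2 or more. One of the AP-1 sites lies inside the antioxidant response element match 45 bases before the start site. Srxn1 also held 1 metal response element match, 19 bases before the start site, where 25.7% of all windows held at least 1. Gclm held 1 antioxidant and 3 metal response element matches, with 1 of each overlapping. The second Txnrd1 window, the Slc7a11 window and the Nfe2l2 window held 1 antioxidant response element match each, where 27.8% of all windows held at least 1. No match to these motifs was found in the Nqo1 window or in the other 2 Txnrd1 windows, and the heat shock element was found in none of the 10, against 0.603% of all windows. Sequence beyond the windows was not searched, so an element farther from the start site would be missed. A match is a run of letters and does not show that a factor binds there. The members were listed as NRF2 pathway and metallothionein genes, so the shares over all windows do not test for enrichment. Genes with an antioxidant response element match included Mt2, above the control, and Srxn1, below it.

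**Figure D3:**
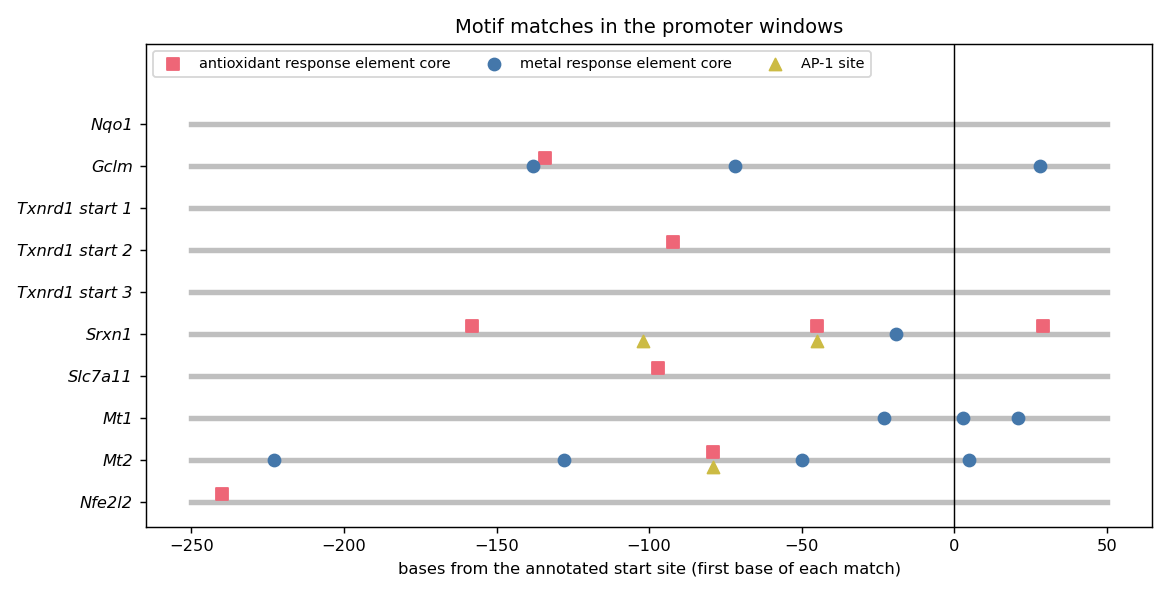
Positions of motif matches in 10 promoter windows, as the first base of each match in bases from the annotated start site (x axis; vertical line, start site); rows are windows, squares antioxidant response element cores, circles metal response element cores and triangles AP-1 sites. Mt2 has 4 circles and Mt1 has 3, and Srxn1 has 3 squares.

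Set among all genes, the measured members were spread over the ranking, with some near either end. At 3 h, counted from the highest ratio of 11574 genes, Mt1 was at place 39, Mt2 at 120, Hmox1 at 441 and Nqo1 at 1217. Nfe2l2 was at place 6745, Gclc at 8296, Gclm at 9599 and Txnrd1 at 10156, and Srxn1 had the 122nd lowest ratio. The median of the 9 log2 ratios was 0.04 at 0.5 h, 0.09 at 1 h and −0.02 at 3 h, beside medians of 0.01, 0.02 and 0.01 over all genes. Above 0 lay 5 of 9 members at 0.5 h, 5 of 9 at 1 h and 4 of 9 at 3 h, where 52.7%, 54.7% and 52.2% of all genes were. At 3 h the members ran from −0.42 (Srxn1) to 0.59 (Mt1). The 3 comparisons use the same control array, so a signal that was high or low on that array alone would shift a gene the same way at all times.

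**Figure D4:**
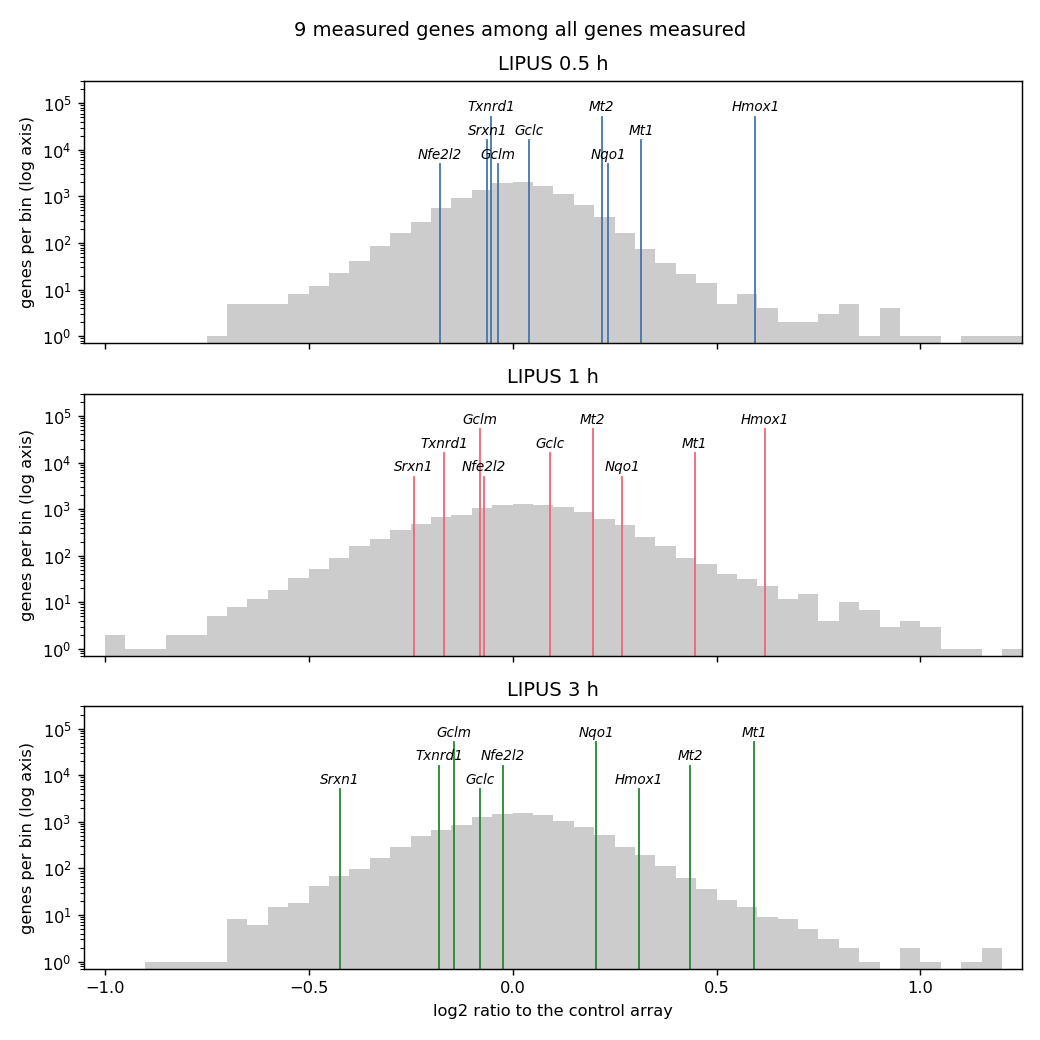
Distribution of log2 ratios to the control array over all genes measured (grey bars, genes per bin on a log axis) at 0.5, 1 and 3 h, with coloured lines at the 9 measured members; genes with higher ratios lie beyond the right edge. Hmox1 stands at the right at 0.5 h and 1 h and Mt1 at 3 h, while Srxn1 stands at the left at 3 h.

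The steps between LIPUS arrays leave the control array out. From 0.5 h to 1 h, 0 of 9 members were higher at 2-fold, against 0.0348% of 11507 genes, and 0 were lower, against 0.00869%. None passed 1.5-fold either, against 0.348% higher and 0.104% lower. The widest step was that of Srxn1, at −0.18, and Hmox1 differed by 0.02. From 1 h to 3 h, 0 of 9 were higher at 2-fold, against 0%, and 0 lower, against 0.087% of 11494 genes, and none passed 1.5-fold, against 0.0174% higher and 0.452% lower. Hmox1 was lower at 3 h than at 1 h by 0.31 on the log2 scale, which was 3.00 times the SD between probe sets for that step (0.103) and the 308th lowest of all genes, while Mt2 was higher by 0.24 and Mt1 by 0.15. Srxn1 was again lower, at −0.18, and Gclc was at −0.17 with its other probe set at −0.16.

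The rest of the pathway was read from 8 lists with 98 genes, of which 82 were measured. None of the 82 passed 2-fold at 0.5, 1 or 3 h, where 0.138%, 0.191% and 0.0691% of all genes were higher and 0% lower. At 1.5-fold, 2, 3 and 1 of 82 were higher, where 0.372%, 0.948% and 0.346% of all genes were, and 0 were lower, where 0.104%, 0.331% and 0.181% were. The pooled medians were 0.02, 0.06 and 0.03, beside 0.01, 0.02 and 0.01 over all genes. The 2 at 0.5 h were Txnip and Slc30a1, these were joined by Gstt1 at 1 h, and the 1 at 3 h was Txnip. These calls also lay near the mark: with cyclic loess 1 was left at each time (Txnip, Slc30a1 and Txnip), with quantile normalization 2, 1 and 1 were, with median centring 2, 3 and 0 were, and with the mean of probe sets 0, 1 (Gstt1) and 0 were. From 1 h to 3 h, 2 of 82 were at least 1.5-fold lower, Slc30a1 at −0.73 and Maff at −0.66, where 0.452% of 11494 genes were.

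Among regulators of NRF2, 0 of 13 measured genes passed 1.5-fold in either direction against the control. Over all genes, 0.372%, 0.948% and 0.346% were higher and 0.104%, 0.331% and 0.181% lower, so a count of 0 among 13 says little. The medians of the 13 genes were −0.07, −0.01 and −0.01. Keap1, the inhibitor, was at −0.16 at 0.5 h, and its other probe set was at 0.02. Bach2, a repressor of the same element, was the lowest of all listed genes at 0.5 h, at −0.57, and was −0.25 and −0.37 later, but its other 2 probe sets gave 0.12 and −0.09 at 0.5 h. Bach1, the repressor of Hmox1, was at −0.07, 0.35 and 0.22, and its other probe set, above the floor on 3 arrays, gave −0.18, 0.10 and 0.15. Sqstm1, which encodes the autophagy receptor that sequesters KEAP1 and is itself an NRF2 target, had a log2 signal of 10.37 on the control array, against 10.32, 9.94 and 10.16 on the 0.5, 1 and 3 h arrays. Its ratio of −0.43 was the lowest of the listed genes at 1 h. Maff, a small MAF partner, was at 0.14 and 0.31 at the early times and −0.34 at 3 h. Dpp3, which competes for KEAP1, was at −0.25 at 1 h.

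The glutathione list had 17 measured genes with medians of 0.00, 0.06 and −0.04. Gstt1, a glutathione transferase, was at 0.17, 0.59 and 0.35, Gstm5 at 0.21 at 0.5 h, and Gpx3, a secreted glutathione peroxidase, at −0.33 at 1 h and −0.27 at 3 h. In the thioredoxin and peroxiredoxin list, 8 of 10 measured genes were above 0 at each time, where 52.7%, 54.7% and 52.2% of all genes were, and the medians were 0.08, 0.11 and 0.09. Txnip encodes an inhibitor of thioredoxin that is also a sensor of glucose and energy state. On the control array its log2 signal was 8.53, and after LIPUS it was 9.14 at 0.5 h, 9.16 at 1 h and 9.12 at 3 h, so that all 3 LIPUS arrays were alike and above the control, but its other probe set gave 0.16, −0.03 and 0.14. Sesn1, a sestrin gene and p53 target, was at 0.10, 0.49 and 0.38, and its other 2 probe sets above the floor gave 0.39 and 0.34 at 1 h.

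The lists for NADPH supply (6 measured genes), haem and iron handling (8), quinone and aldehyde detoxification (9) and superoxide and peroxide removal (4) had no gene past 1.5-fold at any time. Over all genes, 0.372%, 0.948% and 0.346% were higher and 0.104%, 0.331% and 0.181% lower, so none in lists this short says little. The medians of these lists lay between 0.01 and 0.11. Among their named genes, Ptgr1, a prostaglandin reductase, was at 0.23 at 0.5 h, and Aldh9a1, an aldehyde dehydrogenase, at 0.19, 0.35 and 0.23, while the other Aldh9a1 probe set gave −0.06, −0.07 and −0.14.

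Of 15 measured genes for metal transport and sensing, 1 was at least 1.5-fold higher at 0.5 h and 1 h and 0 at 3 h, where 0.372%, 0.948% and 0.346% of all genes were. The gene was Slc30a1, which encodes the zinc exporter of the plasma membrane and, like the metallothionein genes, is a target of MTF1. Slc30a1 had a log2 signal of 8.04 on the control array, against 8.64, 8.68 and 7.95 on the 0.5, 1 and 3 h arrays. The early arrays were high and the 3 h array was the lowest. Its ratios were 0.59, 0.63 and −0.09, and its other probe set gave 0.30, 0.24 and −0.26. The highest array for Mt1 and Mt2 was the one at 3 h, which was the lowest for Slc30a1. Mtf1 itself was at −0.02, 0.36 and 0.19, with 2 other probe sets above the floor at 0.09 and −0.09 at 1 h. The metal transporter genes Slc39a14 and Slc39a7 were at −0.32 and −0.30 at 3 h, and the other Slc39a14 probe sets above the floor gave −0.33 and −0.19. Among the lowest at 0.5 h were the copper pump gene Atp7a and the zinc transporter gene Slc30a7, each at −0.18 (their other probe sets gave −0.28 and 0.01), and the iron importer gene Slc11a2, at −0.13 and then −0.26 at 1 h, although its other 3 probe sets ran from −0.18 to 0.10 at 1 h.

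**Figure D5:**
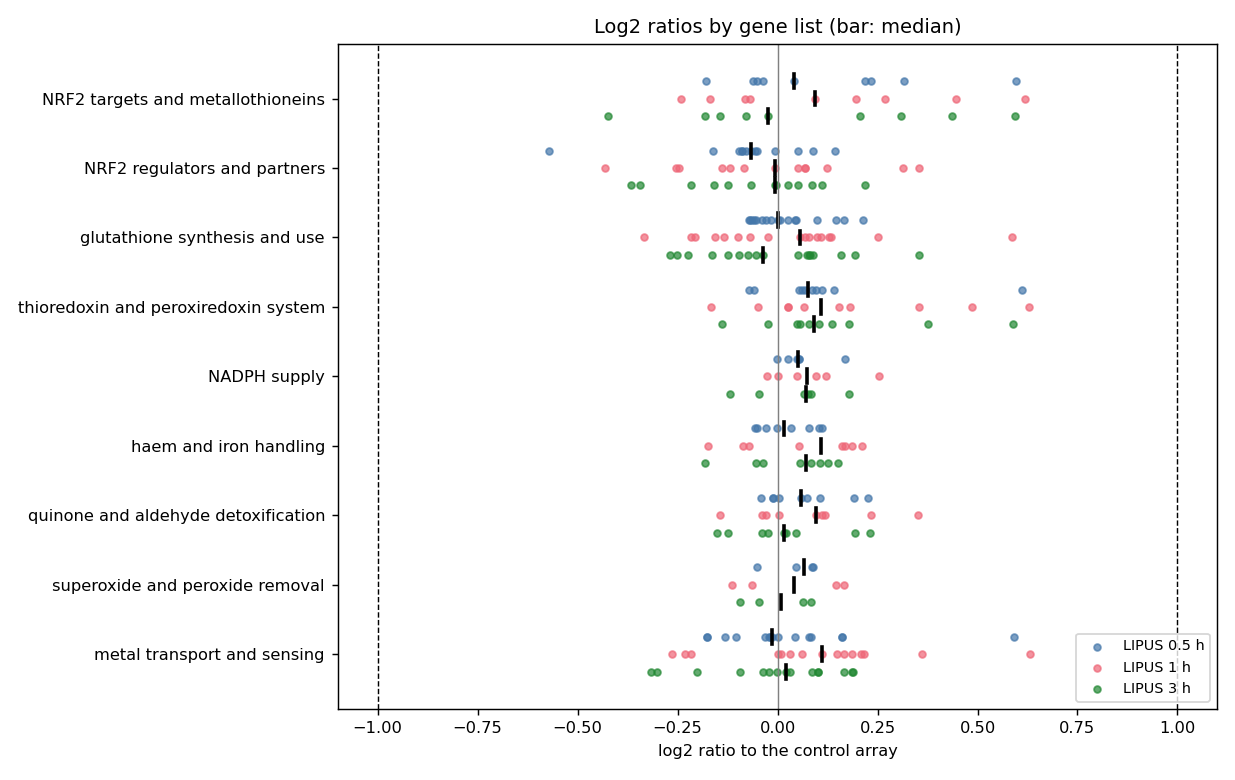
Log2 ratio to the control array (x axis) of every measured gene in the 9 lists (rows), with 1 line of points for each of 0.5, 1 and 3 h; each point is a gene, black bars are medians and dashed lines mark 2-fold. No gene reaches 2-fold, and the medians lie between −0.07 and 0.11.

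The genes with the most similar course were sought for the 3 members of widest range, Hmox1, Mt1 and Mt2, among 11013 other genes above the floor on all 4 arrays. Likeness was the Euclidean distance over the 3 log2 ratios, and with 3 values from 4 arrays it describes these arrays only. Nearest to Hmox1 was Tiparp, an ADP-ribosyltransferase gene and target of the aryl hydrocarbon receptor, at a distance of 0.14 with ratios of 0.55, 0.65 and 0.19. It was followed by Luc7l, a splicing factor gene, at 0.18 and Snord104, a small nucleolar RNA gene, at 0.20. Nearest to Mt1 was Dnaja1, a co-chaperone gene, at a distance of 0.05 with ratios of 0.27, 0.46 and 0.61, followed by Lgals2 at 0.07 and Foxred2 at 0.09. Nearest to Mt2 was Kdm3a, a histone demethylase gene, with ratios of 0.22, 0.20 and 0.43, at a distance of 0.0031. It was followed by Calhm5 at 0.07 and Npff at 0.07. Npff lay near the floor, with a log2 signal of 5.25 on the control array.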

How the data were processed

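Each array gave 1 deposited value for each of 45101 probe sets, on a scale taken as log2 from the range of the values. Per the labels' protocols, cRNA was made from 500 ng of RNA, of RNA integrity number above 9.5, with a kit that primes at the 3' end. How probes were summarised and arrays scaled was not given in the sources used here. After 64 control probe sets were set aside, 34945 probe sets had 1 gene symbol, 932 had several and 9160 were not listed. Of the probe sets with 1 symbol, 34741 were matched to RefSeq through the Entrez number, and the RefSeq symbol was used for these. Values under the floor were raised to it, and ratios were taken for genes above the floor on either array of a pair (11685 genes on at least 1 array). The arrays were alike in level, with medians from 5.21 to 5.25 and Pearson's r from 0.996 to 0.997 across probe sets. The number of arrays limits the precision. The calculation was tested on simulated data with shifts larger than those of any member. That test checks the calculation only, and not whether differences as small as those seen here can be read from 1 array a group.

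The members and lists were chosen with earlier results of these data known. Named were all members, listed genes past 2-fold, the 5 highest and 5 lowest listed genes with both arrays above the floor at each time, and the 3 genes nearest in course to each of the 3 members of widest range. Values of those genes at other times, their further probe sets and the 1.5-fold genes were chosen after their values were seen. The 1.5-fold counts under each alternative were added after seeing the data. Other alternatives covered the floor, the scaling, the probe set, the threshold, the genes that enter and the reference. Computation was in Python 3.11.15 (numpy 2.4.6, pandas 2.3.3, matplotlib 3.10.9), and quantile and cyclic loess scaling used limma 3.58.1 in R 4.3.3.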

Additional observations from a re-analysis of the deposited data

How the results depend on the processing

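No member passed 2-fold under any floor, scaling, choice of probe set or reference tried. At the 1.5-fold threshold the counts were 1 at 0.5 h, 1 at 1 h and 1 at 3 h in place of 0, and these calls depend on the scaling. Of members past 1.5-fold, 0 were left at 0.5 h and 1 h with quantile normalization and cyclic loess, 0 at 3 h with median centring, quantile normalization, cyclic loess and the mean of probe sets, and 0 at all 3 times against the mean of the other 3 arrays. The median for 3 h minus 1 h was 0.046 in place of −0.06 when the probe set with the largest ratio stood for each gene. With quantile, cyclic loess or median scaling, no member changed sign in any comparison with the control; at 0.5 h Hmox1 ran from 0.577 to 0.612, at 3 h Mt1 ran from 0.576 to 0.593 and Srxn1 from −0.44 to −0.42. Against the mean of the other 3 arrays, Hmox1 was at 0.29, 0.32 and −0.10, Nqo1 at 0.08, 0.12 and 0.04, Mt1 at −0.03, 0.14 and 0.34, Mt2 at 0.01, −0.02 and 0.30, and Srxn1 at 0.16, −0.08 and −0.32, a reference that contains the other LIPUS arrays; Txnrd1 was at 0.06 at 0.5 h. Gclm turned from −0.08 to 0.18 at 1 h with the probe set of the largest ratio. Mt1 was at 0.34 at 3 h when its near-floor probe set was averaged in. Nqo1 lay under the floor at the 75th percentile on all arrays, and Slc7a11 had a value only with a lower floor or none. No paired analysis was possible because each group had 1 array.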
